A study of Mus musculus with 24 samples.

Results

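Collagens, the fibre-forming and network-forming proteins of the extracellular matrix, were followed with the enzymes and chaperones that process them in the mandible and maxilla of the mouse on embryonic day 12.5. The set holds 46 genes chosen by symbol, 27 collagen chains and 19 processing genes, and each gene was read from its probe set with the highest mean over 24 arrays. Of these genes, 45 had a probe set of their own. The probe sets of Loxl2, a lysyl oxidase, are each shared with another gene, so no value is given for it. The filter on low values, which asks that a gene lie above the 30th percentile of its array on at least 3 arrays, kept 14879 genes, 43 members among them. The chains Col4a3 and Col4a4 stayed below that percentile (5.85 to 5.93 on the log2 signal scale) on all 24 arrays and were not tested. Col5a3 lay above it on 20 arrays and Loxl4 on 22, so their values are close to background.

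The labels give C57B6 as the background of all embryos. Mice carrying Wnt1cre and Tgfbr2fl/+ were crossed with Tgfbr2fl/fl mice, so the controls carry at least 1 floxed allele too. Wnt1cre recombines in the neural crest lineage, which forms most of the facial mesenchyme but not its muscle, epithelium, endothelium or blood. The labels state that embryos labelled as Tgfbr2 knockouts were recognised by a cleft palate and a calvarial defect, with their littermates as controls. All arrays are of embryonic day 12.5, and whether these traits were scored in the embryos sampled that day was not checked. The labels do not state the genotype of these littermates. From each genotype came the distal and the proximal end of the mandible and of the maxilla, which makes 8 groups of 3 arrays. Whether the 3 arrays of a group come from separate embryos or from pooled tissue is not stated, so the p-values measure only the spread between arrays.

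As background, procollagen chains are made in the endoplasmic reticulum, where prolyl and lysyl hydroxylases modify them and the chaperone Serpinh1 holds the folded helix. After secretion the C-proteinase Bmp1, helped by Pcolce and Pcolce2, trims fibrillar procollagens, and lysyl oxidases crosslink the fibrils. TGF-beta signalling is a known inducer of collagen and lysyl oxidase genes in fibroblasts, and in the embryonic face these matrix genes are expressed by mesenchyme, by the sheaths of muscle and nerve, and by cells that lay basement membranes.

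Partner chains were called in one direction between the jaws, and their upstream sequences are shown for that reason: the 3 chains of collagen VI, the 2 chains of collagen VIII, and P4ha3, a prolyl hydroxylase subunit that was called for jaw, for end and for genotype. Each is the stretch of 250 bases before a RefSeq gene start, on build GRCm38.p6, written 5′ to 3′ on the strand of the gene. Col6a1 is from chr10:76726045-76726294 and Col6a2 from chr10:76623631-76623880, both on the minus strand, with starts 102.4 kb apart. Col6a3 is from chr1:90843972-90844221 and Col8a1 from chr16:57754738-57754987, both on the minus strand. Col8a2 is from chr4:126286544-126286793 and P4ha3 from chr7:100285270-100285519, both on the plus strand. The annotated span of Col6a3 runs to 90844001 and that of P4ha3 begins at 100285489, so part of both windows lies within the annotated gene. Capitals mark 3 motifs, each searched on both strands. They are the letters TATAAA for the box bound by the TATA-binding protein, the letters GGGCGG for the GC box, and the letters CAGAC for the core bound by Smads.
Col6a1: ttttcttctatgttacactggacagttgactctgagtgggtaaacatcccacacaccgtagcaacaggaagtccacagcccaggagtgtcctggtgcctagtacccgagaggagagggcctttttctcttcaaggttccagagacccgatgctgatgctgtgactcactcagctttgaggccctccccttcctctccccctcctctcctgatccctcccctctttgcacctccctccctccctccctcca
Col6a2: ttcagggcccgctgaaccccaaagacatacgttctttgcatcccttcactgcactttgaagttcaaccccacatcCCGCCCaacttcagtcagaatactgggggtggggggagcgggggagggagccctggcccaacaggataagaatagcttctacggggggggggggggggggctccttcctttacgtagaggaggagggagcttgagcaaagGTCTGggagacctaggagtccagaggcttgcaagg
Col6a3: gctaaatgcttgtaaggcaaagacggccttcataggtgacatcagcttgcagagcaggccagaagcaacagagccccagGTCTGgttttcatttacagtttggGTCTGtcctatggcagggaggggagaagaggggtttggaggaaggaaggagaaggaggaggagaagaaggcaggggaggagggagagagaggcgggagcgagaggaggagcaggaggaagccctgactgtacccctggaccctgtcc
Col8a1: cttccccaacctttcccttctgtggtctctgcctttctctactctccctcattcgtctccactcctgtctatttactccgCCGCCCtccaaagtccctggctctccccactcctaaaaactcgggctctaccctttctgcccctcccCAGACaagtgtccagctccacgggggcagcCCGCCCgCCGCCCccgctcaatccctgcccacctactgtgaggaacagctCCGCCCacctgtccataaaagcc
Col8a2: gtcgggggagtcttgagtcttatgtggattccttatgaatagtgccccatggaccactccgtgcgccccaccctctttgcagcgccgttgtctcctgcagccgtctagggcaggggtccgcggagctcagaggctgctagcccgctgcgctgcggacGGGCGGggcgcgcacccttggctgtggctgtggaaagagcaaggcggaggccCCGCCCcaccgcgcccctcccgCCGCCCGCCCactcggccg
P4ha3: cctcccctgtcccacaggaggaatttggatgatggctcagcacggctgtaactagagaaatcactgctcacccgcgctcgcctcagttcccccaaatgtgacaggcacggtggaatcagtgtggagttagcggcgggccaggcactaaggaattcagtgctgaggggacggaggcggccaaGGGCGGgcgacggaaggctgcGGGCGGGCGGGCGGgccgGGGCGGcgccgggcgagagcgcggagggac
None of the 6 windows holds TATAAA on either strand. GC boxes numbered 5 in P4ha3, 4 in Col8a1 and 4 in Col8a2, counting those that overlap each other, against 1 in Col6a2 and 0 in Col6a1 and Col6a3. The Smad core occurred 2 times in Col6a3, 1 time in Col6a2 and 1 time in Col8a1. These are matches of letters in a window and no statement about binding. RefSeq's table held a window for 33 of the 46 members, 36 windows in all. A GC box stood in 69.4% of those 36 windows and in 32.7% of all 32817 windows, the Smad core in 33.3% against 42.2%, and the TATA box in 11.1% against 12.4%, with no matching for base composition. By the starts used for these windows, Col4a1 and Col4a2, partner chains of basement membranes, start 21 bases apart on opposite strands of chromosome 8. Their annotated spans overlap, with Col4a1 running to 11312889 and Col4a2 beginning at 11312805. Col4a5 and Col4a6, which likewise pair in basement membranes, start 1343 bases apart by the window starts, on opposite strands of the X chromosome.

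Array medians lay between 7.26 and 7.38, and the 7 cranial mesenchyme markers Prrx1, Twist1, Pdgfra, Msx1, Alx4, Meox2 and Vim lay above the 30th percentile on all 24 arrays. The targeted gene Tgfbr2 averaged 11.78 ± 0.29 (SD, n = 12) on control arrays, and the knockout arrays averaged 12.11 ± 0.40 (SD, n = 12; adjusted p = 0.112). The labels do not place its probe set against the floxed segment, so this level does not check the genotype, and the groups are called as labelled. Deviations of 7 arrays correlated better with the opposite end of their own jaw than with their own group: control maxilla distal 1 and 2, control maxilla proximal 1, knockout mandible distal 1 and 2, knockout mandible proximal 1 and knockout maxilla proximal 3. Knockout maxilla proximal 1 and 2 stood apart in neuronal markers, with mean deviations of 3.09 and 2.97 over 11 genes against 1.07 in array 3 of that group. Below, 4 of the 7 were left out together, knockout maxilla proximal 1 and 2 were left out together, and every array was left out singly.

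The jaw was the largest of the labelled sources of variation in the set. Over the 43 members, the median share of a gene's sum of squares was 26.0% for jaw, 6.7% for genotype, 6.0% for end and 7.4% for their interactions, while 49.1% lay between arrays of a group. Over all 14879 genes these medians were 17.1%, 4.4%, 5.0%, 10.6% and 47.8%. The members ranged widely: Lox spanned 4.30 log2 units over the 24 arrays and Col14a1 4.72, whereas Serpinh1 spanned 0.22 and P4hb 0.30. A second Serpinh1 probe set ran more widely, from 13.20 to 13.68. No member separated the 12 arrays of a genotype, jaw or end from the other 12 without overlap, which 0.0336%, 3.68% and 0% of all genes did.

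**Figure D1:**
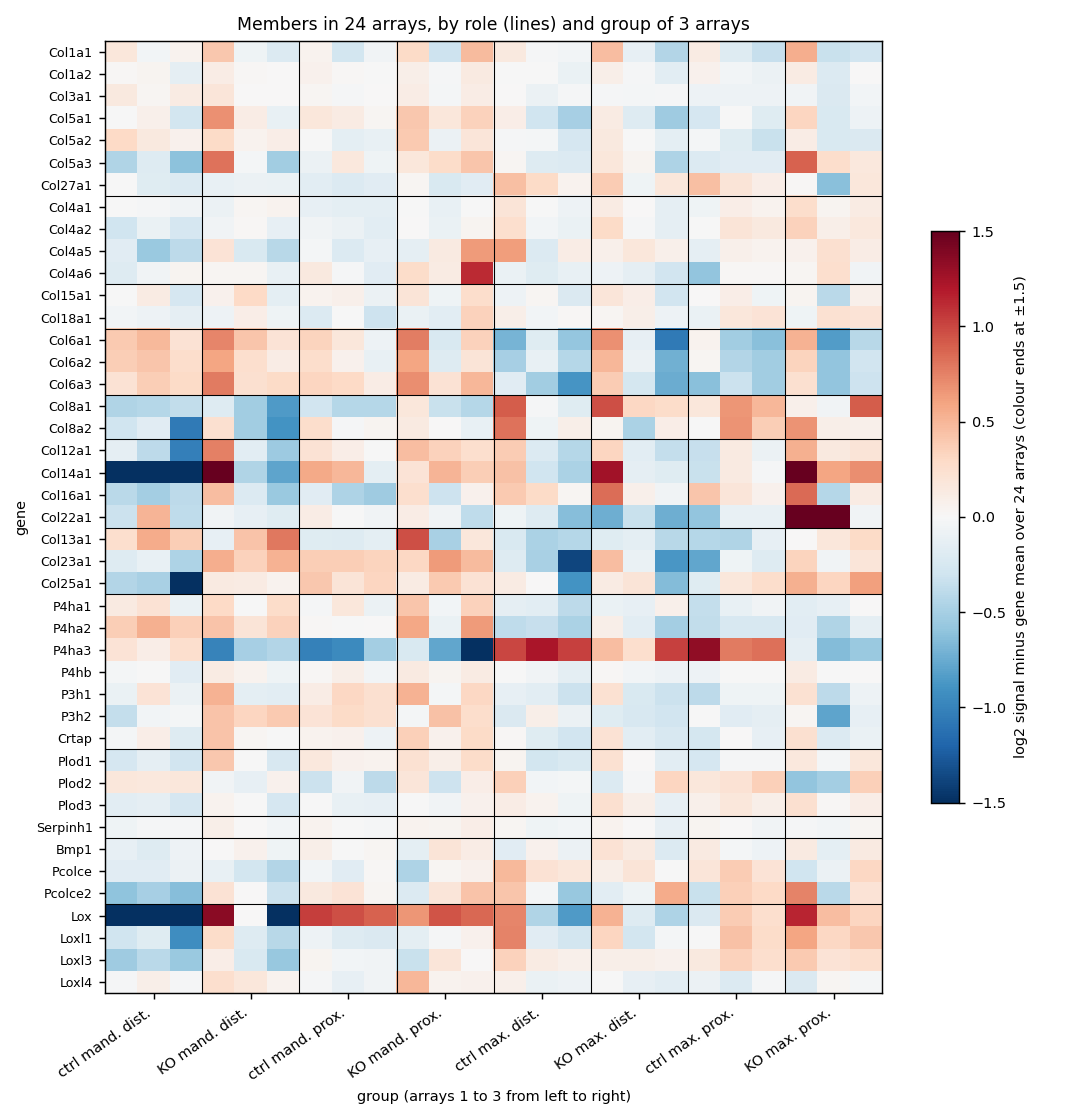
Log2 signal of the 43 tested members on each of 24 arrays, as the difference from the gene's mean over all arrays, with columns in groups of 3 and rows in order of role. Red is above and blue below the mean, the colour ends at 1.5 units, and the darkest cells include those of Col14a1, Lox, P4ha3, Col22a1 and Col25a1.

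Between the jaws the collagen VI chains, the P4ha1 and P4ha2 subunits and several fibrillar chains were higher in the mandible, and the collagen VIII chains, P4ha3, Pcolce, Loxl1 and Loxl3 were higher in the maxilla. This comparison takes the mean over genotypes and ends, with 12 arrays a side. Of the 43 members, 24 were called at adjusted p under 0.05, or 55.8%, where 46.6% of all genes were called. In the mandible 13 members were higher (25.1% of all genes) and 11 were lower (21.4%). The median difference of the members was -0.02 and that of all genes 0.02, so the set as a whole leaned to neither jaw. Of the 24 called members, 22 kept one sign in all 4 combinations of genotype and end, the exceptions being Col27a1 and P3h2. In bulk tissue, fewer cells of a type and less RNA per cell cannot be told apart.

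Among the fibrillar chains, Col3a1, Col5a1 and Col5a2 were higher in the mandible and Col27a1 was lower, while Col1a1, Col1a2 and Col5a3 were not called. Col3a1, the chain of collagen III in pliable tissues, lay between 13.99 and 14.20 (median 14.05) in mandible arrays and between 13.80 and 14.03 (median 13.98) in maxilla arrays. That is a difference of 0.12 ± 0.03 (SE; adjusted p = 0.00408), with the jaws overlapping between 13.99 and 14.03. Col5a1 and Col5a2 encode collagen V, which starts fibrils. Col5a1 lay between 11.66 and 12.63 (median 12.05) in the mandible and between 11.41 and 12.26 (median 11.75) in the maxilla, a difference of 0.29 (adjusted p = 0.0245). Col5a2 ran from 12.85 to 13.38 (median 13.08) and from 12.66 to 13.14 (median 12.90), a difference of 0.19 (adjusted p = 0.0158). The jaws overlapped for both chains. Col27a1, a fibrillar chain best known from cartilage, held a narrow range of 10.35 to 10.60 (median 10.42) in the mandible and a wide range of 9.95 to 11.02 (median 10.75) in the maxilla. Its difference was -0.27 (adjusted p = 0.011), and it was 0.02 between the proximal ends of knockouts. Collagen I did not pass: Col1a1 differed by 0.08 (95% interval -0.18 to 0.34) and Col1a2 by 0.06 (-0.03 to 0.14). Dimmer probe sets gave 0.17 for Col1a1, and 0.09 and -0.49 for Col1a2.

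Of the 6 tested chains of or beside basement membranes, 2 were lower in the mandible and 4 were not called. Col4a1 and Col4a2, which form the common collagen IV network, differed by -0.11 (adjusted p = 0.0313) and by -0.20 (adjusted p = 0.00573). Col4a2 ran from 11.88 to 12.22 (median 12.10) in the mandible and from 12.05 to 12.53 (median 12.30) in the maxilla, and Col4a1 from 12.81 to 13.00 (median 12.91) and from 12.82 to 13.21 (median 13.00). Both genes, whose starts are neighbours, were lower in the mandible, with overlap between the jaws. Col4a1 lost its call without any of 6 single arrays (control maxilla distal 1, control maxilla proximal 2, knockout mandible distal 1, knockout mandible proximal 2, knockout maxilla distal 1 and knockout maxilla proximal 1), with adjusted p up to 0.0596. A second Col4a1 probe set gave -0.03, and the gene measured -0.06 (adjusted p = 0.256) with array medians set equal. Col4a5, Col4a6 and the multiplexins Col15a1 and Col18a1, which sit beside basement membranes, were not called, with differences from -0.21 to 0.20. For Col4a5 (-0.21) a dimmer probe set gave 0.20, and for Col4a6 (0.20) a dimmer one gave -0.05, so both signs depend on the probe set.

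Collagen VI forms beaded microfilaments around cells and is abundant in the connective tissue of muscle. All 3 of its chains were higher in the mandible. Col6a3 lay between 12.80 and 13.47 (median 12.98) on mandible arrays and between 11.80 and 13.07 (median 12.27) on maxilla arrays. It was 1.65-fold higher in the mandible, a log2 difference of 0.72 ± 0.12 (SE; adjusted p = 0.000156). Col6a1 spanned 11.57 to 12.57 (median 12.14) against 10.74 to 12.49 (median 11.34), 1.55-fold higher (0.63 ± 0.18, SE; adjusted p = 0.00999). Col6a2 spanned 12.37 to 13.16 (median 12.82) against 11.85 to 13.06 (median 12.21), 1.38-fold higher (0.47 ± 0.13, SE; adjusted p = 0.00884). All 3 chains were highest among the maxilla arrays on array 1 of the 2 knockout groups. Col6a3 read 13.07 and 12.93 there and no more than 12.52 on the other 10 maxilla arrays, all below the mandible. Within each genotype and end, the difference lay between 0.64 and 0.82 for Col6a3, between 0.50 and 0.85 for Col6a1 and between 0.37 and 0.69 for Col6a2.

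The network-forming collagen VIII, made of Col8a1 and Col8a2 and known from vessel walls and the corneal Descemet membrane, went the opposite way. Col8a1 lay between 9.82 and 10.84 (median 10.24) in the mandible and between 10.49 and 11.63 (median 10.96) in the maxilla. It was 1.69-fold lower in the mandible (-0.75 ± 0.14, SE; adjusted p = 0.000293), and the 4 differences by genotype and end ran from -1.04 to -0.50. A further Col8a1 probe set gave -0.94, and a dim one -0.12. Col8a2 lay between 10.30 and 11.62 (median 11.29) and between 10.88 and 12.17 (median 11.44), a difference of -0.39 ± 0.15 (SE; adjusted p = 0.0345). This call was the less stable of the pair, since it held in 13 of 24 fits that left out an array, with adjusted p from 0.00869 to 0.0661. The endothelial list, whose cells are a known source of collagen VIII, had 2 of 11 genes higher in the mandible and 0 lower. Its summed levels were 13.37 to 13.77 in the mandible and 13.06 to 13.82 in the maxilla. The part of these cells in the collagen VIII differences was not tested.

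**Figure D2:**
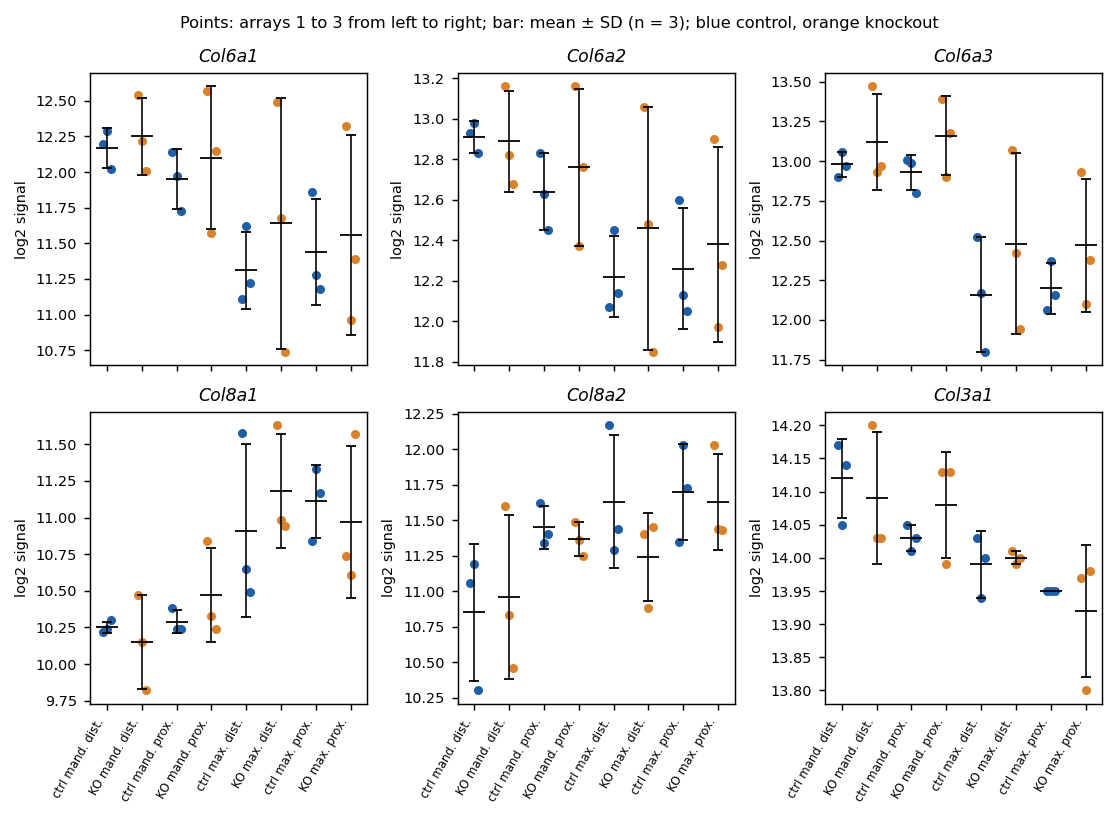
Log2 signal of the collagen VI chains, the collagen VIII chains and Col3a1 in the 8 groups (points are arrays 1 to 3 from left to right, the bar is the mean with its SD, n = 3, blue control and orange knockout). Collagen VI and Col3a1 lie higher in the mandible groups on the left and collagen VIII higher in the maxilla groups on the right, with array 1 of both knockout maxilla groups high for collagen VI.

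Of the fibril-associated chains, which decorate the surface of fibrils, only Col16a1 was called between the jaws. It lay between 9.34 and 10.35 (median 9.54) in the mandible and between 9.46 and 10.74 (median 10.04) in the maxilla, a difference of -0.46 ± 0.14 (SE; adjusted p = 0.0131). Col12a1, Col14a1 and Col22a1 differed by -0.02 to -0.56 without passing. A dimmer probe set gave 0.37 for Col12a1 and another -0.43 for Col14a1, while those of Col22a1 gave 0.08 and 0.10. The transmembrane chains Col13a1, known from neuromuscular junctions, and Col23a1 were higher in the mandible. Col13a1 ran from 8.44 to 9.90 (median 9.14) and from 8.45 to 9.22 (median 8.72), a difference of 0.40 (adjusted p = 0.0151). Col23a1 ran from 9.70 to 10.80 (median 10.52) and from 8.79 to 10.63 (median 10.02), a difference of 0.52 (adjusted p = 0.00611). Its other probe sets gave 0.46 and 0.57. The 3rd transmembrane chain, Col25a1, differed by -0.10 and was not called, and its dimmer probe set gave 0.10.

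The prolyl hydroxylases, which stabilise the collagen helix, split by subunit. The catalytic subunit P4ha2 lay between 10.53 and 11.27 (median 10.97) in the mandible and between 10.12 and 10.72 (median 10.33) in the maxilla. It was 1.48-fold higher in the mandible (0.56 ± 0.079, SE; adjusted p = 2.4e-05). The catalytic subunit P4ha1 ran from 10.32 to 10.84 (median 10.57) and from 10.03 to 10.50 (median 10.30), 1.21-fold higher (0.27 ± 0.064, SE; adjusted p = 0.00221), and a dimmer probe set of P4ha1 gave 0.82. The catalytic subunit P4ha3 was the reverse: it lay between 7.65 and 9.62 (median 8.86) in the mandible and between 8.71 and 10.69 (median 10.16) in the maxilla. It was 2.14-fold lower in the mandible (-1.10 ± 0.14, SE; adjusted p = 1.02e-05), the smallest p among the members. The maxilla arrays within the mandible range were the 3 knockout proximal ones, at 9.23, 8.71 and 8.81. P4ha3 has only 1 probe set, so no other probe set checks its values here or below. The shared subunit P4hb differed by 0.05 and was not called.

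The prolyl 3-hydroxylases followed P4ha1 and P4ha2. P3h2, the form linked to basement membrane collagen, lay between 9.88 and 10.67 (median 10.49) in the mandible and between 9.44 and 10.32 (median 10.08) in the maxilla, a difference of 0.35 (adjusted p = 0.00131). P3h1, which works in a complex with Crtap, ran from 9.72 to 10.40 (median 10.04) and from 9.48 to 10.10 (median 9.73), a difference of 0.28 (adjusted p = 0.0236), but a second P3h1 probe set gave 0.02 and the mean of both 0.15 (adjusted p = 0.197). Crtap differed by 0.18 at adjusted p = 0.05, which rounds to the threshold and was not called.

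Of the lysyl hydroxylases, the chaperone and the procollagen cleavage genes, 7 in all, Plod3 and Pcolce were lower in the mandible and 5 were not called. Plod3, a lysyl hydroxylase that also glycosylates collagen, lay between 10.78 and 11.09 (median 10.95) in the mandible and between 10.90 and 11.27 (median 11.12) in the maxilla, a difference of -0.16 (adjusted p = 0.00644). Plod1 and Plod2 differed by 0.06 and -0.06 and were not called, nor was the chaperone Serpinh1 at 0.03. A second Serpinh1 probe set, nearly as bright (mean 13.46 against 13.51), gave 0.16. Pcolce, which speeds cleavage by Bmp1, lay between 11.78 and 12.31 (median 12.10) and between 11.95 and 12.73 (median 12.43), 1.24-fold lower in the mandible (-0.31 ± 0.072, SE; adjusted p = 0.00201). Pcolce2 and Bmp1 were not called, at -0.17 and -0.02, although a dimmer Bmp1 probe set gave 0.77.

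Among the lysyl oxidases, Loxl3 had the smallest p between the jaws. It lay between 9.09 and 9.84 (median 9.52) in the mandible and between 9.72 and 10.05 (median 9.84) in the maxilla, 1.32-fold lower in the mandible (-0.40 ± 0.066, SE; adjusted p = 0.000126). Loxl1, known for elastic fibres, lay between 9.02 and 10.23 (median 9.76) and between 9.68 and 10.69 (median 10.24), 1.31-fold lower (-0.39 ± 0.12, SE; adjusted p = 0.0135). Loxl4 was higher by 0.15 (adjusted p = 0.0182) at levels of 5.84 to 6.56, close to background. Lox itself, the enzyme that crosslinks fibrillar collagen and elastin, differed by -0.27 and was not called, and a second Lox probe set gave 0.12. On its brightest probe set Lox spanned 8.67 to 12.97 in the mandible and 10.76 to 12.75 in the maxilla. The maxilla thus lay inside the mandible's range.

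Markers of other cells moved with the jaw. Skeletal muscle markers were higher in the mandible for 16 of 16 genes, with a median difference of 2.83 and a log2 summed level of 11.05 to 16.34 in the mandible and 10.45 to 16.00 in the maxilla. Of the muscle markers, 7 of 16 lay below the 30th percentile on some arrays, and Myh8 lay above it on 13. Tendon and fibrous tissue markers were higher for 7 of 10, with a median of 0.67 and summed levels of 13.67 to 14.68 against 12.47 to 14.35. Neuronal markers were lower for 8 of 11, with a median of -1.20 and summed levels of 12.29 to 14.34 against 13.20 to 16.13, and the neuronal marker Pou4f1 was above the 30th percentile on 6 arrays. Epithelial markers were lower for 7 of 13 and higher for 2, with summed levels of 12.26 to 14.46 against 12.25 to 15.13. Cranial mesenchyme markers were higher in the mandible for 3 of 7, with summed levels of 15.53 to 15.74 against 15.17 to 15.57, and osteoblast markers for 2 of 4 tested (12.29 to 12.96 against 10.74 to 12.33). The part of these cells in the jaw differences of the collagen genes was not tested. Without control maxilla 1 and knockout mandible 1 at both ends (4 arrays), which resembled the other end of their jaw, 22 members were called. No share of all genes is given for that fit, so its count is no result about the members.

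**Figure D3:**
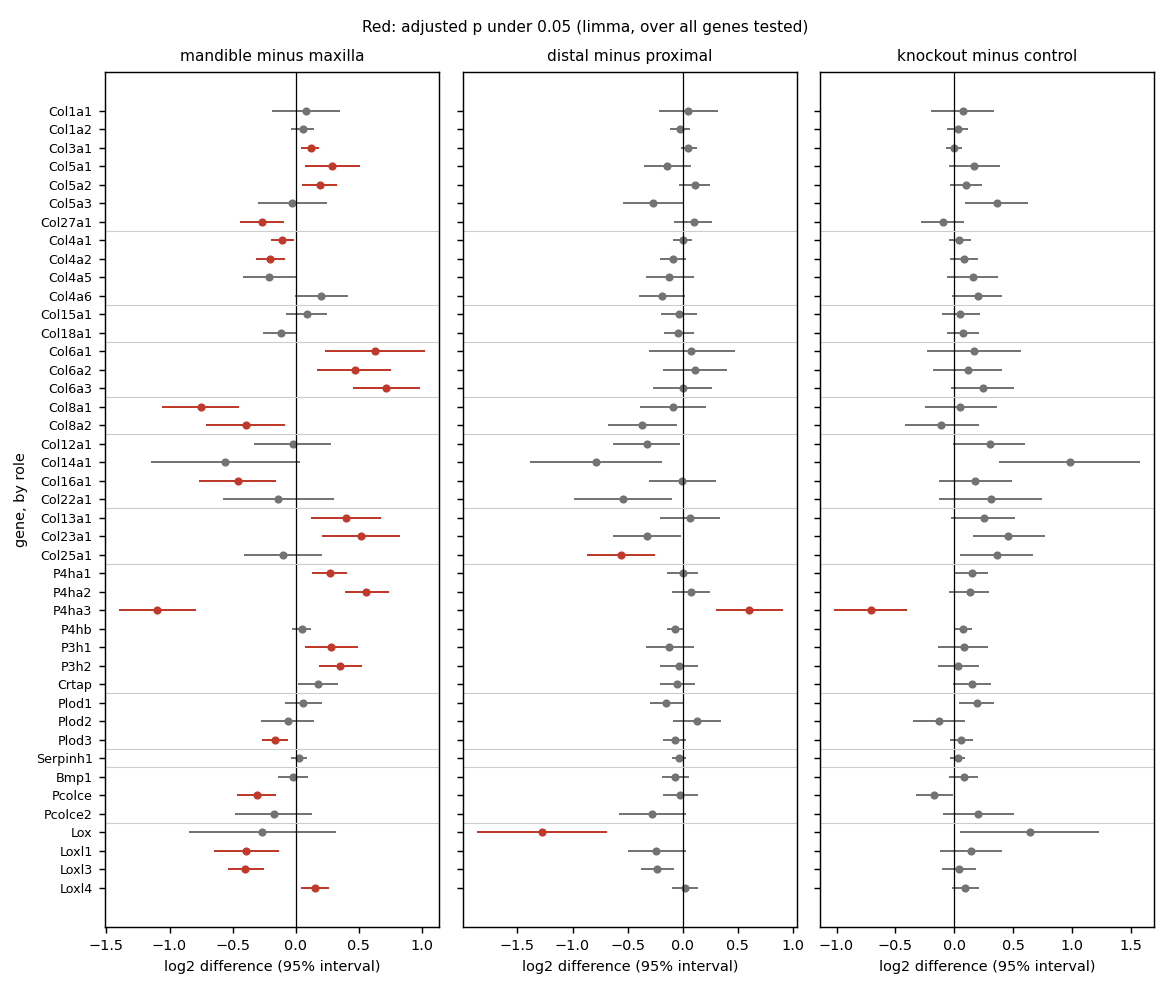
Log2 differences of the 43 members with 95% intervals from limma for mandible minus maxilla, distal minus proximal and knockout minus control, each averaged over the other labels, with red where the adjusted p was under 0.05. The jaw panel holds 24 red genes on both sides of 0, the end panel 3 and the genotype panel 1.

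Taken by genotype and end, with 3 arrays a side, the jaw difference was called for fewer members. Between the distal ends of controls 8 members were called, or 18.6%, against 14.0% of all genes. The largest of these were Lox and Col14a1, a fibril-associated chain. Lox read 9.70, 9.90 and 8.67 in the mandible and 12.35, 11.16 and 10.76 in the maxilla, so that the groups did not overlap. It was 4-fold lower in the mandible (-2.0 ± 0.55, SE; adjusted p = 0.0223). Col14a1 read 7.22, 7.11 and 6.40 against 9.42, 8.69 and 8.51, 3.9-fold lower (-1.96 ± 0.56, SE; adjusted p = 0.0265), again without overlap. Without control maxilla distal 1 or control mandible distal 3 Lox was not called, with adjusted p up to 0.115, and Col14a1 lost its call without any of 4 arrays (control mandible distal 2 and 3, control maxilla distal 1 and 2), with adjusted p up to 0.107.

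In the same comparison P4ha2 read 11.00, 11.16 and 10.98 in the mandible and 10.25, 10.28 and 10.15 in the maxilla, higher by 0.82 (adjusted p = 0.00291). Loxl3 read 9.13, 9.26 and 9.10 against 10.00, 9.78 and 9.74, lower by a log2 difference of -0.67 (adjusted p = 0.00326). These 2 calls held in all 24 fits that left out an array. Col6a3 (0.82), Col13a1 (0.77), P4ha3 (-0.90) and Pcolce (-0.44) were called with adjusted p from 0.0353 to 0.0485. Each of the 4 lost its call without at least 5 of the single arrays, and Col13a1 and Pcolce held it in 5 and 7 of the 24 fits.

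Between the proximal ends of controls only P4ha3 was called, 1 of 43 members against 14.5% of all genes. It read 8.35, 8.41 and 8.85 in the mandible and 10.69, 10.14 and 10.19 in the maxilla, without overlap. It was 3.48-fold lower in the mandible (-1.80 ± 0.28, SE; adjusted p = 0.000949), and the call held without any one array. Col6a3 (0.73) and Col8a1 (-0.83) came next, with adjusted p = 0.0539 and 0.054.

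In knockouts 3 members were called between the distal ends, against 7.88% of all genes. P4ha3 read 8.36, 8.87 and 8.92 in the mandible and 9.83, 9.62 and 10.39 in the maxilla (-1.23, adjusted p = 0.0145). Col8a1 read 10.47, 10.15 and 9.82 against 11.63, 10.98 and 10.94 (-1.04, adjusted p = 0.0302), and P3h2 read 10.66, 10.56 and 10.63 against 10.05, 9.99 and 9.95 (0.62, adjusted p = 0.0229). None of these overlapped between the jaws. Each lost its call without 1 of 2 to 4 single arrays, with adjusted p up to 0.104. Between the proximal ends of knockouts 3 were called, against 12.7% of all genes: Col22a1 (-1.55, adjusted p = 0.0189), P4ha2 (0.64, adjusted p = 0.0134) and P3h2 (0.52, adjusted p = 0.0365). P4ha2 read 11.21, 10.53 and 11.27 in the mandible against 10.46, 10.17 and 10.49 in the maxilla. Each of the 3 calls was lost without any of 3 single arrays. These were knockout mandible proximal 3 and knockout maxilla proximal 2 for all 3 genes, with knockout maxilla proximal 1 for Col22a1, knockout mandible proximal 1 for P4ha2 and knockout mandible proximal 2 for P3h2. P3h2 measured 0.27 (adjusted p = 0.19) without knockout maxilla proximal 2. Without knockout maxilla proximal 1 and 2, 0 members were called there, Col22a1 measured -0.04, and the lone remaining array was assumed to vary like the other groups.

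As the mean over genotypes and jaws, Lox and Col25a1 were lower at the distal end and P4ha3 was higher there. In this comparison 3 of 43 members were called, or 6.98%, against 3.86% of all genes. Lox lay between 8.67 and 12.97 (median 11.15) on the 12 distal arrays and between 11.39 and 12.75 (median 12.38) on the 12 proximal arrays. It was 2.43-fold lower distally (-1.28 ± 0.28, SE; adjusted p = 0.0284), and a second Lox probe set gave -1.25. P4ha3 lay between 8.36 and 10.59 (median 9.62) distally and between 7.65 and 10.69 (median 8.83) proximally, 1.52-fold higher distally (0.60 ± 0.14, SE; adjusted p = 0.0339). Col25a1, a transmembrane chain needed for motor innervation of muscle in mice, lay between 9.69 and 11.53 (median 11.38) distally and between 11.16 and 11.96 (median 11.63) proximally. It was 1.48-fold lower distally (-0.56 ± 0.14, SE; adjusted p = 0.0403), while its dimmer probe set gave -0.13.

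These 3 calls were sensitive to single arrays. Leaving out each array in turn, Lox was called in 14 of 24 fits, P4ha3 in 12 and Col25a1 in 7, and the differences stayed between -1.46 and -1.08, between 0.50 and 0.69 and between -0.61 and -0.46. Without control maxilla 1 and knockout mandible 1 at both ends (4 arrays) the count was 13 members, with Lox at -1.64 (adjusted p = 0.000321). The share of all genes in that fit is not given, so the count is no result about the members. Without knockout maxilla proximal 1 and 2 it was 0, with Lox at -1.20 (adjusted p = 0.139). The fibril-associated chains Col12a1, Col14a1, Col16a1 and Col22a1 had differences between -0.79 and -0.01 and none was called. Neuronal markers were lower distally for 6 of 11 genes, with summed levels of 12.29 to 14.17 distally and 12.95 to 16.13 proximally. Glial and Schwann cell markers were lower for 4 of 5 (10.50 to 12.54 against 11.79 to 14.15) and epithelial markers higher for 4 of 13 (13.78 to 15.13 against 12.25 to 14.74). Muscle markers had a median of -1.39 with 0 of 16 called (10.45 to 16.34 against 10.83 to 16.00). Their part in the differences of Lox and Col25a1 was not tested.

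Taken by genotype and jaw, the end difference was called for 3 members in the control mandible (6.98%, against 3.45% of all genes). Lox read 9.70, 9.90 and 8.67 distally and 12.65, 12.58 and 12.50 proximally, 8.9-fold lower at the distal end (-3.15 ± 0.55, SE; adjusted p = 0.0068). Col14a1 read 7.22, 7.11 and 6.40 distally and 9.56, 9.48 and 8.84 proximally, 5.22-fold lower (-2.39 ± 0.56, SE; adjusted p = 0.0263). Col25a1 read 10.90, 10.85 and 9.69 against 11.75, 11.54 and 11.66, 2.25-fold lower (-1.17 ± 0.29, SE; adjusted p = 0.0322). For all 3 genes every distal array lay below every proximal array. Lox lost its call without control mandible distal 3 (adjusted p = 0.0502), Col14a1 without any of 5 arrays (control mandible distal 1 and 3 and the 3 control mandible proximal arrays) and Col25a1 without any of 4 (control mandible distal 3 and the same 3 proximal arrays).

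Cell type markers differed between these ends too. Neuronal markers were lower distally for 6 of 11 genes, with mean deviations of -1.42, -0.92 and -1.38 distally and 0.92, 0.55 and 0.18 proximally. Glial and Schwann cell markers were lower for 5 of 5, with summed levels of 10.50 to 11.02 against 12.30 to 12.69. Muscle markers were lower for 3 of 16, with a median of -2.95 and with mean deviations of -1.17, 1.17 and -2.58 distally against 2.12, 2.17 and 1.79 proximally. Among the distal arrays, control mandible distal 2 had the highest muscle value and the highest Lox value, 9.90, and array 3 the lowest of both. That order was not particular to Lox: array 2 was the highest of 3 for 25 of 43 members and 44.7% of all genes, and array 3 the lowest for 26 members. The part of these cells in the differences was not tested.

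In the other 3 end comparisons fewer members passed. In the control maxilla limma called 0 of 43 members and 0% of all genes, and the unadjusted p was under 0.05 for 0 members and 103 genes. Lox differed there by -0.32, with control maxilla distal arrays at 12.35, 11.16 and 10.76 and proximal arrays at 11.39, 11.99 and 11.86. The 3 smallest p belonged to Col23a1 (-0.34), Col25a1 (-0.33) and Col4a5 (0.18). In the knockout mandible limma called 0 members and 0% of all genes, with 1 member and 72 genes at an unadjusted p under 0.05. Lox read 12.97, 11.62 and 9.85 distally, spanning most of its range, and 12.28, 12.55 and 12.47 proximally (-0.95 ± 0.55, SE; adjusted p = 1). Col4a6 (-0.52) and Col4a5 (-0.36) had the smallest p there. Without the same 4 arrays the knockout mandible gave -1.77 for Lox (adjusted p = 0.274).

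In the knockout maxilla 2 members were called, against 6.16% of all genes. Col22a1, a chain of tissue junctions such as those of muscle and tendon, read 6.45, 6.85 and 6.45 distally and 9.64, 9.13 and 7.13 proximally (-2.05 ± 0.41, SE; adjusted p = 0.0133). P4ha3 read 9.83, 9.62 and 10.39 distally and 9.23, 8.71 and 8.81 proximally, 2.04-fold higher distally (1.03 ± 0.28, SE; adjusted p = 0.0414). Both pairs of groups were apart without overlap. Neuronal markers were lower distally for 7 of 11 (summed levels 13.23 to 14.17 against 14.39 to 16.13), glial markers for 1 of 5 (12.01 to 12.35 against 12.52 to 14.15), and epithelial markers were higher for 8 of 13 (14.70 to 15.13 against 12.25 to 14.34). Muscle markers had a median of -2.16 with 0 called, and the part of these cells was not tested. Without knockout maxilla proximal 1 and 2 the difference was -0.54 for Col22a1 and 1.14 for P4ha3, and neither was called. P4ha3 also lost its call in 12 of the 24 fits without a single array.

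The test of whether the end difference itself differed between mandible and maxilla in limma called 0 members and 0% of all genes, with 3 members and 814 genes at an unadjusted p under 0.05. Lox had the smallest p of the members (-1.55, 95% interval -2.71 to -0.39, adjusted p = 0.843). Col22a1 (0.99) and Col13a1 (0.59) followed. Without knockout maxilla proximal 3 Col22a1 was called, at 1.37 (adjusted p = 0.00328).

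**Figure D4:**
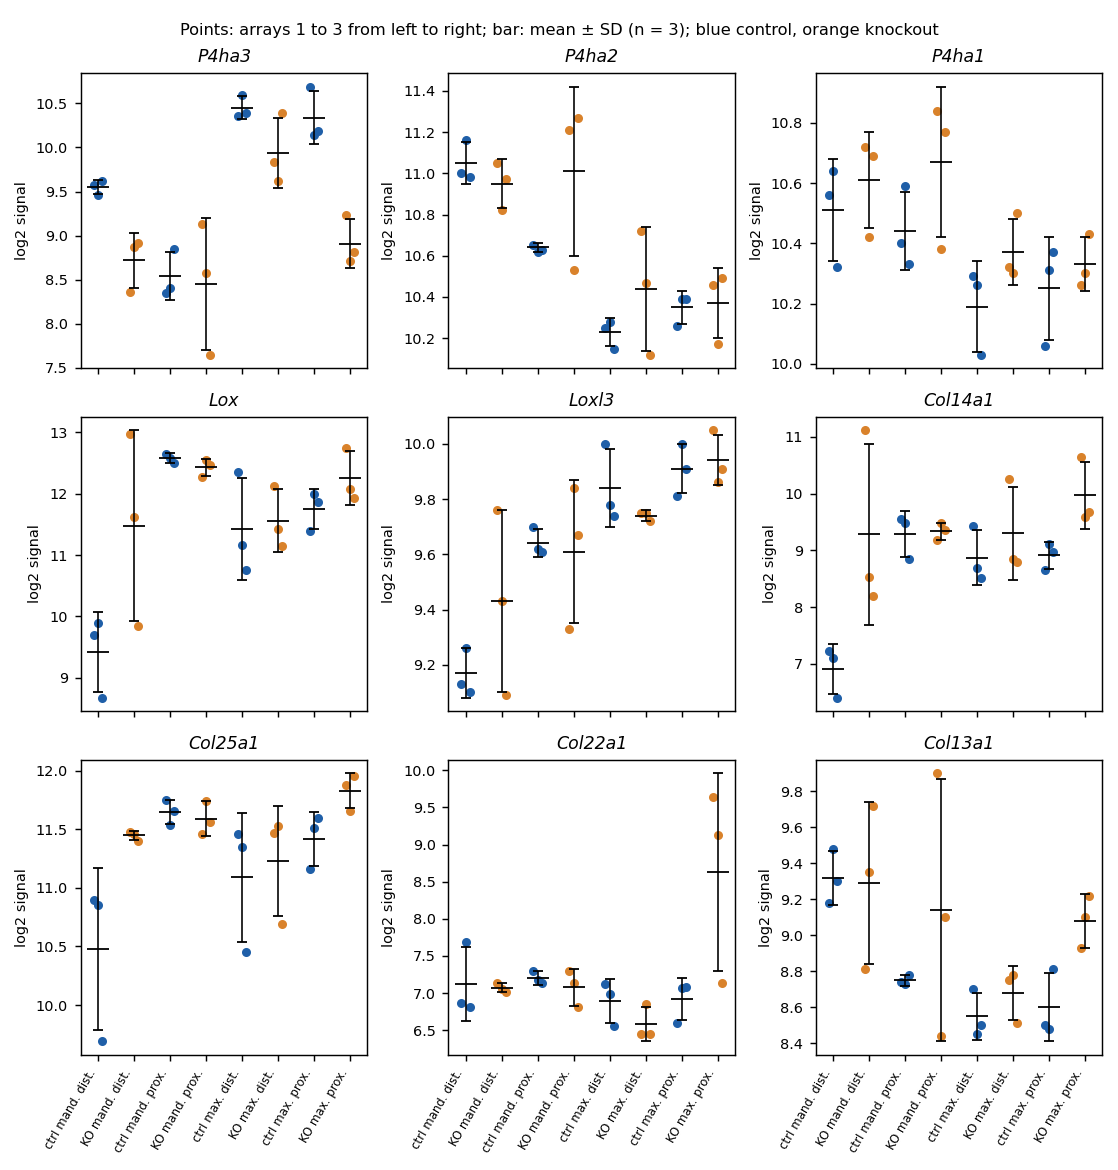
Log2 signal of the members with the largest differences by group (points are arrays 1 to 3 from left to right, the bar is the mean with its SD, n = 3, blue control and orange knockout). Lox, Col14a1 and Col25a1 are low in the control distal mandible, Col22a1 is high on 2 of 3 knockout proximal maxilla arrays, and the mean of P4ha3 is lower in knockouts in each region.

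Between knockouts and controls P4ha3 was lower in knockouts, and no other member passed. That call was lost with a random block for each genotype and number (correlation 0.158). Averaged over the 4 regions, 1 member was called, where 0.470% of all genes were called. That count of 70 genes ran from 6 to 2132 when single arrays were left out, the highest without knockout maxilla proximal 3, where 6 members were called. P4ha3 lay between 8.35 and 10.69 (median 9.88) on the 12 control arrays and between 7.65 and 10.39 (median 8.89) on the 12 knockout arrays. It was 1.64-fold lower in knockouts (-0.71 ± 0.14, SE; adjusted p = 0.0347), with differences of -0.83, -0.08, -0.50 and -1.42 in the distal mandible, proximal mandible, distal maxilla and proximal maxilla. The groups overlapped in 2 of these regions. In the proximal mandible controls read 8.35, 8.41 and 8.85 and knockouts 9.13, 8.58 and 7.65, and the difference turned to 0.32 without knockout mandible proximal 3 and to 0.07 without control mandible proximal 3. In the distal maxilla controls read 10.36, 10.59 and 10.39 and knockouts 9.83, 9.62 and 10.39. The call held in 7 of 24 fits that left out an array, with adjusted p from 0.00727 to 0.0781 and a difference between -0.79 and -0.61. It was kept without control mandible distal 2, control maxilla distal 1, knockout mandible distal 3, knockout mandible proximal 1 or 2, knockout maxilla distal 3 or knockout maxilla proximal 3, and lost without any of the other 17 arrays.

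Of the other members, 0 were called and most had small positive differences. In all, 38 of the 43 were positive, against 53.7% of all genes, with a median of 0.10 against 0.01, and 11 members had an unadjusted p under 0.05 (25.6%, against 23.2% of all genes). Col14a1 had the largest difference (0.98, 95% interval 0.39 to 1.57, adjusted p = 0.0753), from a range of 6.40 to 9.56 (median 8.76) in controls and of 8.20 to 11.12 (median 9.42) in knockouts. Col23a1 had the next smallest p (0.46, adjusted p = 0.0872), with 8.79 to 10.54 (median 9.97) against 9.29 to 10.80 (median 10.51). Lox (0.64), Col25a1 (0.36) and Col5a3 (0.36) did not pass. Collagen I differed by 0.07 for Col1a1 and 0.03 for Col1a2, and Col3a1 by 0.00, the last with a range of 13.94 to 14.17 in controls and 13.80 to 14.20 in knockouts. A dimmer Col1a1 probe set gave 0.32, the dimmer ones of Col1a2 gave 0.02 and -0.26, and that of Col3a1 gave 0.05. Collagen VI differed by 0.12 to 0.24 and collagen IV by 0.04 to 0.20. Muscle markers were positive for 16 of 16 genes, with a median of 1.95 and 0 called, with log2 summed levels of 10.45 to 15.86 in controls and 10.46 to 16.34 in knockouts. Their part in the direction of the collagen genes was not tested.

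By region the knockout called 0 members in the distal mandible (0.134% of all genes), 0 in the proximal mandible (0.0538%) and 0 in the distal maxilla (0.0202%). At an unadjusted p under 0.05 there were 6, 3 and 0 members, or 14.0%, 7.0% and 0.0%, against 12.6%, 2.9% and 2.7% of all genes. In the distal mandible Col14a1 read 7.22, 7.11 and 6.40 in controls and 11.12, 8.53 and 8.20 in knockouts (2.38, adjusted p = 0.0993), and Lox read 9.70, 9.90 and 8.67 against 12.97, 11.62 and 9.85 (2.06, adjusted p = 0.136). Each Col14a1 array of the knockouts lay above the controls, whereas 1 knockout array of Lox fell within the control range. Array 1 carried the highest value of both genes and array 3 the lowest. Without knockout mandible distal 3 both were called, Col14a1 at 2.92 (adjusted p = 0.0204) and Lox at 2.87 (adjusted p = 0.00869). Without knockout mandible distal 1, an array that resembled the proximal end, they measured 1.45 and 1.31 and were not called. Col25a1 read 10.90, 10.85 and 9.69 against 11.48, 11.46 and 11.40 (0.97, adjusted p = 0.177).

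In the proximal mandible the smallest p belonged to Loxl4 (0.27), Col4a6 (0.52) and P4ha2 (0.37), each with adjusted p = 1. In the distal maxilla it belonged to Col23a1 (0.52), P4ha3 (-0.50) and Pcolce (-0.20), each again with adjusted p = 1. Neither region gave a member a call in either direction.

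In the proximal maxilla 2 members were called, or 4.65%, against 5.77% of all genes. P4ha3 read 10.69, 10.14 and 10.19 in controls and 9.23, 8.71 and 8.81 in knockouts, 2.68-fold lower without overlap (-1.42 ± 0.28, SE; adjusted p = 0.0144). Col22a1 read 6.59, 7.07 and 7.08 against 9.64, 9.13 and 7.13, 3.29-fold higher (1.72 ± 0.41, SE; adjusted p = 0.0263). Only arrays 1 and 2 of the knockouts were high for Col22a1, the third, at 7.13, lying next to the highest control. Those 2 arrays carried the neuronal scores of 3.09 and 2.97, and 7 of 11 neuronal, 7 of 16 muscle and 3 of 5 glial markers were higher in knockouts here, while 8 of 13 epithelial markers were lower. Epithelial mean deviations were -1.67 and -1.52 on those arrays and 0.21 on the third. Neuronal summed levels were 13.58 to 13.84 in controls and 14.39 to 16.13 in knockouts, and muscle summed levels 10.83 to 11.59 and 13.05 to 16.00. The part of these cells in the 2 calls was not tested.

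Without those 2 arrays Col22a1 differed by 0.21 (adjusted p = 1), P4ha3 by -1.53 (adjusted p = 0.883) and 0 members were called, with 1 knockout array left and assumed to vary like the other groups. Without control maxilla 1 and knockout mandible 1 at both ends (4 arrays) neither was called, Col22a1 at 1.56 (adjusted p = 0.122) and P4ha3 at -1.25 (adjusted p = 0.0836). Leaving out single arrays, Col22a1 lost its call without knockout maxilla proximal 1 or 2 or any of the 3 control maxilla proximal arrays, and P4ha3 without knockout maxilla proximal 2 or control maxilla proximal 1. Plod2, a lysyl hydroxylase of collagen telopeptides, came next at -0.50 (adjusted p = 0.124). It was called without knockout maxilla proximal 3 (-0.79, adjusted p = 0.00184), where 5 of 43 members and 3366 of 14879 genes were called. The Col22a1 probe set is of a type that can match transcripts of related sequence. The mean of the 3 Col22a1 probe sets gave 1.16 (adjusted p = 0.0287).

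The knockout effect was compared between mandible and maxilla and between distal and proximal ends, and 0 members were called in either test, where 0.0336% and 0.00672% of all genes were. At an unadjusted p under 0.05 there were 2 members and 1 member, or 4.7% and 2.3%, against 6.6% and 4.3% of all genes. P3h2 had the smallest p between the jaws (0.43, adjusted p = 0.614), with knockout differences of 0.52, -0.02, -0.17 and -0.19 in the 4 regions, followed by Loxl4 (0.22) and Col22a1 (-0.80). Between the ends it was Col22a1 (-0.98, adjusted p = 1), then Col4a6 (-0.38) and P3h2 (0.28). Lox gave 0.92 (95% interval -0.24 to 2.08) between the ends. Without knockout maxilla proximal 3 Col22a1 was called in both tests, at -1.17 and -1.35.

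Of the collagen pathway outside these members, 47 genes were listed, 42 had a probe set and 39 were tested. Between the jaws 15 of the 39 were higher and 6 lower in the mandible, where 25.1% and 21.4% of all genes were. Those with the smallest p were Tmem38b, an endoplasmic reticulum cation channel needed for collagen modification (0.38, adjusted p = 5.62e-07), Fkbp7, a prolyl isomerase of that compartment (0.46, adjusted p = 7.82e-06), the fibril-associated chain Col19a1 (0.71, adjusted p = 0.000272) and the fibril-binding proteoglycan Dcn (1.39, adjusted p = 0.000274). Between the ends 1 was higher distally, the C-proteinase Tll1 (0.60), and 1 lower, Col20a1 (-0.26), where 3.86% of all genes were called. Knockout against control called 0 of the 39 as the mean over the regions (0.470% of all genes). Of the 39, 33 were positive (53.7% of all genes), with a median of 0.07.

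A last pattern lay between arrays of the same group. Array 1 was the highest of 3 for 35 of 43 members in the control distal maxilla, where it was so for 35.6% of all genes. It was the highest for 34 in the knockout distal mandible (38.7% of all genes), for 31 in the knockout distal maxilla (36.4%), for 29 in the control proximal mandible (27.5%), for 27 in the knockout proximal maxilla (33.6%) and for 21 in the knockout proximal mandible (31.2%). It was the highest for 11 in each of the 2 remaining groups. The members' median deviation from the group mean reached 0.17 on knockout maxilla distal 1 and -0.18 on knockout maxilla proximal 2, while that of all genes stayed between -0.04 and 0.04 on every array. Many members deviated together on an array, so they are not independent of one another.

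**Figure D5:**
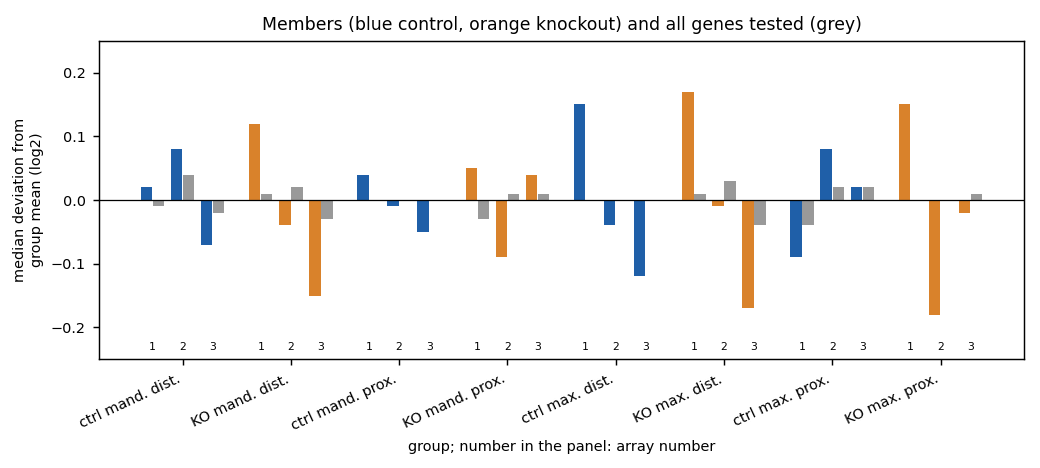
Median deviation from the group mean on each array for the 43 members (blue control, orange knockout) and for all 14879 genes tested (grey), in log2 units, with array numbers along the bottom. The members' bars reach 0.17 and -0.18, beyond the grey bars, which stay between -0.04 and 0.04.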

How the data were processed

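Total RNA of 24 samples was labelled as biotin cRNA and hybridised to 1-colour arrays, per the labels. The values are log2 signals that the authors deposited, made with RMA per the submitters' processing notes, with the version not given in the sources used here. Of 45101 probe sets, 34945 had 1 gene symbol, 932 several, 9160 none and 64 were controls, and 34741 matched a RefSeq gene by Entrez number. Each of 18193 genes was read from its brightest probe set, and 14879 passed the filter. Probe sets of different genes are not compared in level.

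Group means of all 8 groups were fitted with limma 3.58.1 in R 4.3.3, with 16 residual degrees of freedom. Tests were two-sided, with Benjamini-Hochberg adjustment over all genes tested, and genes were called at adjusted p under 0.05. The fit was also run on simulated arrays drawn independently of one another, so that run does not check the calls where arrays are correlated. Tables and plots used Python 3.11.15, pandas 2.3.3, numpy 2.4.6 and matplotlib 3.10.9. The number of arrays limits the precision.

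Values are given for members called, up to 12 per direction over all arrays and up to 6 in single regions, and otherwise for the 3 with the smallest p; pathway genes were limited to 4 a comparison. Members named beyond that were chosen after their values were seen. The members and all lists were chosen with earlier results of these data known. Alternatives were equal medians, cyclic loess, other filters, the mean of probe sets, array weights, a trend with a robust prior, replicate blocks, and arrays left out.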

Additional observations from a re-analysis of the deposited data

How the results depend on the processing

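The precision is limited by 3 arrays a group and by probe sets near background. The counts below are members called, in place of those in the report. Counts of all genes are given below only for arrays left out singly, so a higher count is no result about the members. A trend with a robust prior and dropping the filter moved no count by more than 1.5 times. With equal medians the jaw call count was 2 between control proximal ends and 5 between knockout proximal ends. Cyclic loess gave 1 for the end in the knockout maxilla. A filter at the 50th percentile gave 3 for the jaw at control proximal ends. The mean of probe sets gave 1 for the end in the control mandible and 4 for the jaw at control proximal ends. Array weights gave more: 8 for knockout, 17 for end, 1 for end by jaw, 3 for knockout in the distal and 3 in the proximal mandible, 6 in the proximal maxilla, 2 for the knockout effect between jaws, 10 for the end in the control mandible, and for the jaw 20 at control proximal, 8 at knockout distal and 8 at knockout proximal ends.

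Arrays of one number are not stated to share an animal. Deviations of arrays with the same genotype and number had a median correlation of 0.15 over 36 pairs (-0.65 to 0.54) against -0.06 over 168 pairs with different numbers. The correlation was over 0.1 in 23 of the 36 pairs and in 32 of the 168. The fits above took all arrays as separate, and their p-values do not allow for arrays of one number that share an animal. With the number as a fixed replicate block the counts were 2 for knockout, 5 for end, 1 for knockout in the distal mandible, and for the jaw 5 at control proximal and 6 at knockout proximal ends. With a random block for each genotype and number (correlation 0.158) they were 0 for knockout, where P4ha3 lost its call (-0.71, adjusted p = 0.221), 5 for end, 5 for the end in the control mandible, and for the jaw 4, 5 and 7 at control proximal, knockout distal and knockout proximal ends. With genotype and number as a fixed block they were 5 for end and, for the jaw at the same ends, 6, 5 and 8.

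Without control maxilla 1 and knockout mandible 1 at both ends (4 arrays) the counts were 13 for end, 1 for end by jaw, 0 for knockout in the proximal maxilla, 6 for the end in the control mandible and 2 for the jaw at control proximal ends. Without the 4 arrays of control number 2 they were 0 for knockout, end, knockout in the proximal maxilla, the end in the control mandible and the end in the knockout maxilla, and 1 for the jaw at control distal and at knockout distal ends. Without knockout maxilla proximal 1 and 2, an alternative chosen after seeing the data, they were 0 for knockout, end, knockout in the proximal maxilla, the end in the knockout maxilla and the jaw at knockout proximal ends, 1 for knockout in the distal mandible, 6 for the end in the control mandible and 6 for the jaw at control proximal ends. The cause of these changes was not tested.

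Leaving out each array in turn, the counts ran from 0 to 6 for knockout, 0 to 9 for end, 23 to 25 for jaw and 0 to 1 for end by jaw. Over all genes they ran from 6 to 2132 for knockout and from 42 to 2463 for end. For jaw they ran from 6411 to 7059 over all genes, and for end by jaw from 0 to 194. By region the counts of members ran from 0 to 2 for knockout in the distal mandible, 0 to 0 in the proximal mandible and distal maxilla, and 0 to 5 in the proximal maxilla, and from 0 to 1 for either test of the knockout effect. For the end they ran from 0 to 5 in the control mandible, 0 to 0 in the control maxilla and knockout mandible and 0 to 4 in the knockout maxilla. For the jaw they ran from 2 to 9 at control distal, 1 to 4 at control proximal, 0 to 5 at knockout distal and 0 to 5 at knockout proximal ends. Differences reversed, none of them called, for Col4a5 in the control maxilla (-0.10 without those of control maxilla 1 and knockout mandible 1, and from -0.04 to 0.38 leaving out single arrays, reversed without control maxilla distal 1), for Col23a1 there (from -0.59 to 0.00 leaving out single arrays, reversed without control maxilla distal 3) and for Plod2 in the knockout proximal maxilla (0.10 without arrays 1 and 2).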
